A study of Oryza sativa with 6 samples.

Results

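The 7 transcription factor loci described here act in the filling rice endosperm and were measured in mature-period grains of the rice line Zhenong 34 (wild type) and of a mutant called sg34. They were chosen by locus ID, as the rows of RPBF, bZIP58, NAC20, NAC26, NF-YB1, NF-YC12 and RSR1, and all 7 have a row among the 55986 rows of the deposited table. Messenger RNA was sequenced from grains, with 3 libraries of each line; the labels name no mutated gene or allele and no treatment beyond the growth stage, so no targeted gene could be examined. Nothing in them says whether the replicates are separate plants, and p-values therefore cover the spread among these 6 libraries alone, part of which may be technical. Values are TPM, a length-corrected relative abundance of each transcript, and sequencing depth is unknown. In bulk grain RNA, fewer cells of a type and less RNA per cell cannot be told apart.

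The starchy endosperm is the storage tissue of the rice grain, and a small group of transcription factors turns on its starch and storage protein genes. RPBF, a Dof zinc finger protein, and bZIP58 (also called RISBZ1), a leucine zipper protein related to maize Opaque2, bind short promoter elements of glutelin and prolamin genes and activate them together. NAC20 and NAC26 are related activators of starch and storage protein genes that can stand in for each other. NF-YB1 and NF-YC12 are subunits of the CCAAT-binding NF-Y complex, which in rice endosperm acts on sucrose transport and amylose synthesis genes, and RSR1 is an AP2-type repressor of starch synthesis genes.

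For 6 loci the deposited annotation fits the family of the name. The protein nearest to LOC_Os02g15350 (RPBF) is described as Dof protein PBF, and that nearest to LOC_Os07g08420 (bZIP58) as regulatory protein opaque-2, with RISBZ1 as its Swiss-Prot match. LOC_Os01g01470 (NAC20) and LOC_Os01g29840 (NAC26) carry the NAC domain, and LOC_Os05g03040 (RSR1) carries the AP2 domain. LOC_Os10g11580 (NF-YC12) has an NF-YC subunit of Arabidopsis as its Swiss-Prot match, and its nearest protein is described as uncharacterized. The annotation goes against the name at the seventh locus. LOC_Os02g49370, chosen as NF-YB1, is described as an NF-YB-6 subunit of the LEAFY COTYLEDON 1-like type, a group of embryo regulators known from Arabidopsis. The row described as rice NF-YB1 is LOC_Os02g49410, on the same chromosome 2. LOC_Os02g49370 is therefore called by its locus ID, and LOC_Os02g49410 is given beside it although it is not among the 7.

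A single wild type library, replicate 1, had a marker profile unlike the rest. Starchy endosperm markers (Wx, ISA1, BEIIb, GluA2 and Glb1) summed to 27331.8 TPM there and to between 58169.6 and 76968.4 TPM in the other 5 libraries. These markers did not move together. GluA2 and Glb1 were lowest in that library, at 2760 and 17225 TPM, whereas ISA1 and BEIIb were highest there, at 1021 and 3536 TPM. Wx, at 2790 TPM, lay between the values of wild type replicates 2 and 3. The 4 embryo and oil body markers summed to 1016.4 TPM there and to between 4110.3 and 8183.7 TPM elsewhere. The 4 light-harvesting and Rubisco genes that mark green tissue summed to 125.7 TPM there and to between 5.9 and 76.1 TPM elsewhere. The Rubisco genes RbcS3 and RbcS4 were highest in that library, at 84.5 and 9.71 TPM. The light-harvesting genes CAB-b and CAB2R, at 22.1 and 9.45 TPM, lay within the ranges elsewhere (2.25 to 35.8 and 0.89 to 27.5 TPM). Of these 13 markers 0 were called different by the test of the lines, and none was at 0 in all libraries. The part of these differences in the results was not tested.

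RPBF and NF-YC12 led the order of levels in the wild type and NAC26 led it in the mutant. In wild type replicates 1 and 3 the order of deposited TPM began with RPBF, then NF-YC12, then NAC26, and in replicate 2 NF-YC12 stood just above RPBF. NAC26 was the highest of the 7 loci in all 3 mutant libraries. NAC20 and bZIP58 came next in every library, and LOC_Os02g49370 and RSR1 were the lowest pair in all 6 libraries. The 7 loci together held 1485.5 to 1664.8 TPM in the wild type libraries and 1350.3 to 1658.2 TPM in the mutant libraries, and these sums overlapped between the lines.

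**Figure D1:**
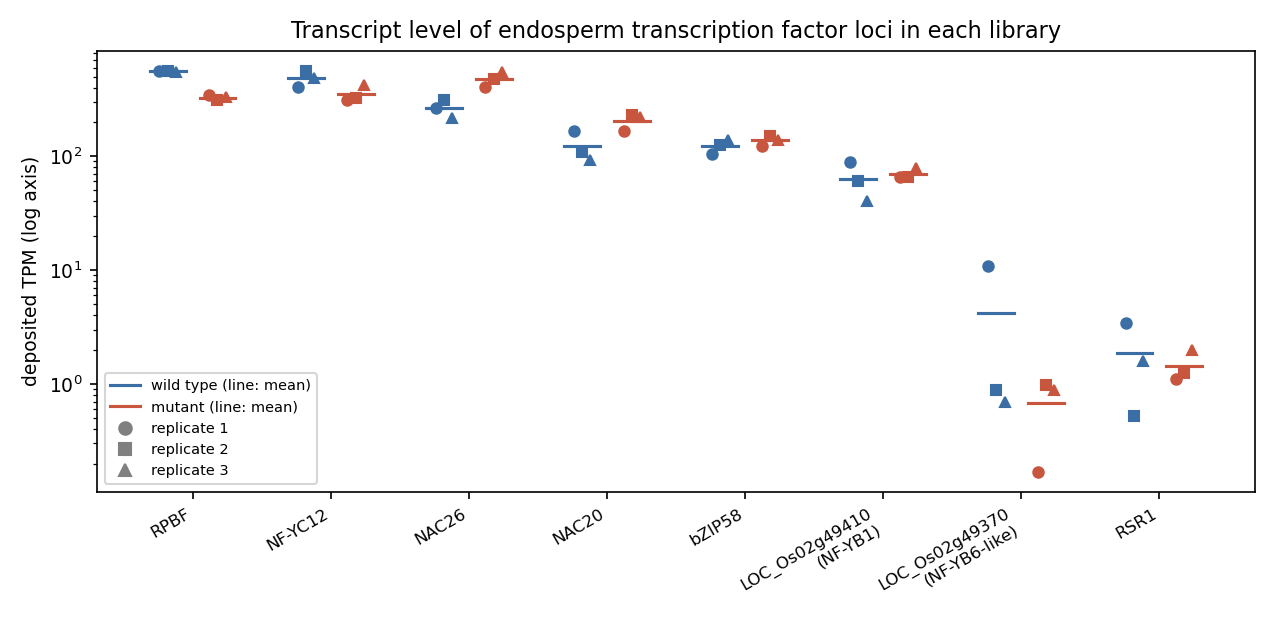
Deposited TPM (log axis) of the 7 loci and of the row annotated as NF-YB1 (LOC_Os02g49410), by library; symbols mark replicates and lines mark the mean of each line. RPBF lay at 547 to 562 TPM in the wild type and at 310 to 344 TPM in the mutant, whereas NAC26 lay at 217 to 309 and 404 to 548 TPM.

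None of the 6 loci that could be tested was called different between the lines. The test was limma on log2(TPM + 1) after scaling by trimmed means (TMM), with Benjamini-Hochberg adjustment over the 16917 rows that had at least 1 TPM in at least 3 libraries, and a threshold of 0.05. Of all tested rows 1.89% were called higher in the mutant and 1.87% lower, or 3.76% in either direction. A log2 difference is mutant minus wild type on this scale. The median difference of the 6 loci was 0.47, against -0.01 over all tested rows, and 5 lay above 0. The groups did not overlap for NAC20 and NAC26, both with the mutant above, as was the case in 10.9% of all tested rows; 12.7% did not overlap with the mutant below, and 23.6% in either direction. The median difference of the 6 loci was 0.03 without rescaling, where that of all tested rows was -0.43, and 0.40 without wild type replicate 1. Unadjusted limma p was under 0.05 for NAC20 and NAC26 and for 17.3% of all tested rows.

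Of the storage protein activators, RPBF had the highest wild type mean of the 7 loci. Replicates 1, 2 and 3 of the wild type had RPBF at 562, 558 and 547 TPM, and it was at 344, 310 and 328 TPM in the mutant replicates. Deposited TPM of the lines did not overlap, with means of 555 ± 7.95 and 327 ± 16.9 TPM (SD, n = 3). How often deposited TPM of all tested rows did not overlap was not counted. After scaling the libraries did overlap: the values ran from 338 to 656 scaled TPM in the wild type and from 308 to 490 in the mutant. The log2 difference was -0.24 ± 0.35 (SE), with a 95% interval from -1.07 to 0.59 and limma adjusted p = 0.744. Without rescaling it was -0.76, with limma adjusted p = 0.329, beside a median of -0.43 over all tested rows. Leaving out wild type replicate 1 gave -0.46, and leaving out wild type replicate 2 gave 0.0061.

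RPBF held nearly all of the TPM of its family. Of 30 rows with a Dof domain in the deposited annotation it ranked highest in all 6 libraries and held 93.3% to 96.7% of the family's TPM in the wild type and 94.3% to 94.9% in the mutant. The next Dof row, LOC_Os08g38220, had a mean of 3.802 TPM over the 6 libraries. The domain families were drawn after the values of the loci had been seen.

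bZIP58, the partner of RPBF, had levels that overlapped between the lines. It was at 104, 126 and 139 TPM in the wild type replicates and at 124, 151 and 139 TPM in the mutant replicates. The log2 difference was 0.69 ± 0.36 (SE), with a 95% interval from -0.17 to 1.55 and limma adjusted p = 0.377. Without wild type replicate 1 the log2 difference was 0.35, and without rescaling it was 0.17. Among 98 rows with a bZIP domain it ranked highest in 5 libraries and had rank 2 in wild type replicate 1. Its share of the bZIP TPM was 8.03%, 13.2% and 11.4% in the wild type and 15.8%, 18% and 13.5% in the mutant, and the lines did not overlap. An exact two-sided permutation test of that share gave p = 0.1, the smallest that 3 against 3 libraries allow. How often the shares of other bZIP rows did not overlap was not counted.

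NAC20 and NAC26 had the largest differences of the 6 tested loci, and neither passed the threshold. NAC20 was at 165.7, 109 and 92.0 TPM in the wild type replicates and at 166.0, 229 and 220 TPM in the mutant replicates. Wild type replicate 1 lay just under mutant replicate 1 in deposited TPM, and after scaling the gap was wider, with 75.2 to 129 scaled TPM in the wild type against 206 to 295 in the mutant. The log2 difference of NAC20 was 1.29 ± 0.28 (SE), with a 95% interval from 0.63 to 1.95 and limma adjusted p = 0.0628. NAC26 was at 263, 309 and 217 TPM in the wild type replicates and at 404, 479 and 548 TPM in the mutant replicates, and every mutant library lay above every wild type library. The log2 difference of NAC26 was 1.38 ± 0.37 (SE), with a 95% interval from 0.51 to 2.26 and limma adjusted p = 0.116.

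The call of these 2 loci turned on the settings. NAC20 passed the threshold with no variance trend (limma adjusted p = 0.0479) and with library weights (0.00239). NAC26 passed with library weights (0.00430) and when wild type replicate 2 was left out (0.0418). Of all tested rows, library weights called 2137 higher and 1779 lower, and no variance trend 316 and 309. Leaving out wild type replicate 2 gave 254 and 76, and the main fit 320 and 316. Over all alternatives the adjusted p ranged from 0.00239 to 0.338 for NAC20 and from 0.00430 to 0.456 for NAC26. Without rescaling the log2 differences were 0.77 and 0.86, with limma adjusted p of 0.332 and 0.316. With wild type replicate 1 left out they were 1.30 and 1.16.

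**Figure D2:**
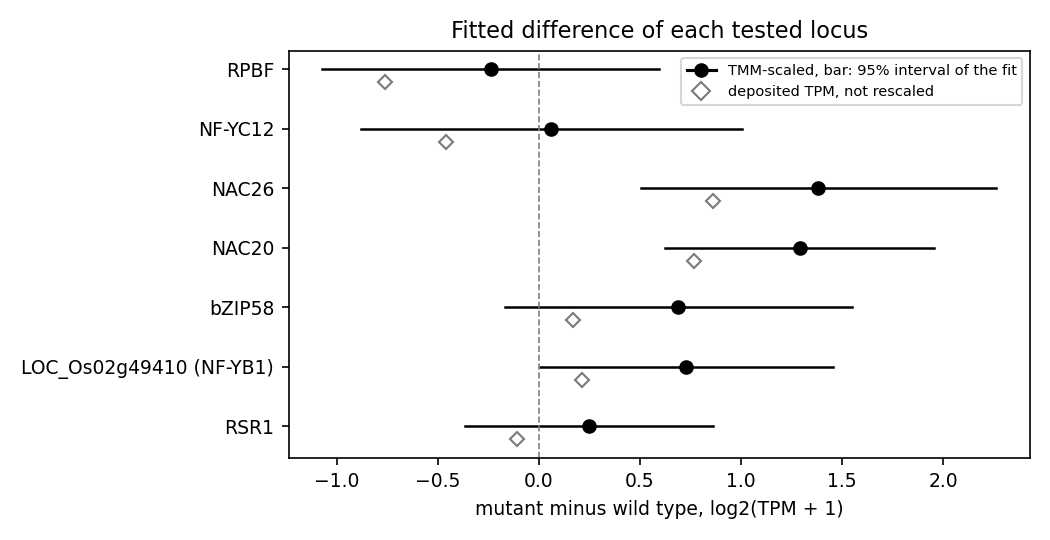
Fitted difference of each tested locus (mutant minus wild type, log2(TPM + 1)), with the 95% interval of the limma fit as a bar and the value without rescaling as an open diamond. The points of NAC26 and NAC20 lie at 1.38 and 1.29 and those of RPBF and NF-YC12 at -0.24 and 0.06; all diamonds lie to the left of their points.

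Within the NAC family the same pair took a larger share in the mutant libraries. NAC26 held 10.8%, 10.8% and 9.73% of the TPM of 137 rows with a NAC domain in the wild type and 19.5%, 19.0% and 22.4% in the mutant. NAC20 held 6.79%, 3.82% and 4.12% in the wild type and 8.02%, 9.07% and 8.97% in the mutant. Neither share overlapped between the lines (exact two-sided permutation p = 0.1 for each, the smallest possible). How often the shares of other NAC rows did not overlap was not counted. The rank of NAC26 in the family was 3 in all 6 libraries, and that of NAC20 was 5 in the wild type libraries and 4 in the mutant libraries. Of 37 tested NAC rows 0 were called higher and 2 lower, beside 1.89% and 1.87% of all tested rows. The 2 rows were LOC_Os07g04560 and LOC_Os12g05990, with log2 differences of -1.35 and -1.12 (limma adjusted p of 0.0255 and 0.0237). Their calls under the alternatives were not examined.

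The endosperm NAC genes ONAC023 and ONAC025 had the highest mean levels of the family, at 665 and 634 TPM. Their fitted log2 differences were 0.13 ± 0.54 and 0.34 ± 0.37 (SE), with limma adjusted p of 0.915 and 0.656. The ratio of NAC20 to NAC26 was 0.630, 0.354 and 0.423 in the wild type and 0.411, 0.477 and 0.401 in the mutant. This ratio overlapped between the lines, with a log2 ratio difference of -0.09 (exact two-sided permutation p = 0.8).

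NF-YC12, the NF-Y complex subunit, was the highest of 61 rows with the histone-like NF-Y domain in every library, a set that also takes in core histones. It was at 404, 561 and 488 TPM in the wild type replicates and at 312, 324 and 420 TPM in the mutant replicates. Mutant replicate 3 lay above wild type replicate 1, so the lines overlapped. The log2 difference was 0.06 ± 0.40 (SE), with a 95% interval from -0.88 to 1.01 and limma adjusted p = 0.947. Its sign turned without rescaling (-0.46) and without wild type replicate 1 (-0.29).

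LOC_Os02g49370, the locus chosen as NF-YB1, did not pass the filter on low values. It was at 10.9, 0.89 and 0.69 TPM in the wild type replicates and at 0.17, 0.97 and 0.88 TPM in the mutant replicates. Wild type replicate 1 alone was above 1 TPM, and the other 5 libraries overlapped. The difference of mean log2(scaled TPM + 1) was -0.75, with an exact two-sided permutation p = 0.5, and without wild type replicate 1 it was -0.06. In that library the embryo marker genes 7S-globulin and EMP1 were at 18.2 and 7.60 TPM, against 1484 to 3594 and 98.2 to 520 TPM in the other libraries.

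The row annotated as NF-YB1, LOC_Os02g49410, was far more abundant than LOC_Os02g49370. It was at 89.3, 60.7 and 40.5 TPM in the wild type replicates and at 66.2, 66.0 and 79.0 TPM in the mutant replicates. Deposited values overlapped and scaled values did not. The log2 difference was 0.73 ± 0.30 (SE), with a 95% interval from 0.01 to 1.45 and limma adjusted p = 0.286. With library weights the limma adjusted p was 0.0144, and without rescaling the log2 difference was 0.21. Library weights called 2137 of all tested rows higher, against 320 in the main fit. NF-YC12 exceeded this row by 4.52, 9.25 and 12 times in the wild type libraries and by 4.71, 4.90 and 5.32 times in the mutant libraries, ranges that overlapped.

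RSR1, the repressor of starch genes, was low in all libraries. It was at 3.44, 0.52 and 1.60 TPM in the wild type replicates and at 1.10, 1.25 and 1.98 TPM in the mutant replicates. The wild type libraries spanned the mutant libraries on both sides. The log2 difference was 0.25 ± 0.26 (SE), with a 95% interval from -0.36 to 0.86 and limma adjusted p = 0.634, and it was -0.11 without rescaling. Single libraries moved it: leaving out wild type replicate 1 gave 0.45, and leaving out wild type replicate 2 gave 0.0035. Among 158 rows with an AP2 domain its rank lay between 40 and 62.

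Ratios between 2 loci within a library do not depend on how libraries are scaled. Of 15 pairs of the 6 tested loci, 7 (46.7%) had ratios that did not overlap between the lines. Among all pairs of the 16458 tested rows with a value above 0 in every library, the ratios of 23.9% did not overlap. Each of these had an exact two-sided permutation p = 0.1, the smallest possible, or 0.214 with Benjamini-Hochberg adjustment over the 15 pairs, so none passes. The pairs share loci and are not separate results.

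The widest shift was between RPBF and NAC26. RPBF exceeded NAC26 by 2.14, 1.81 and 2.52 times in the wild type libraries, and in the mutant libraries the ratio was 0.851, 0.647 and 0.599. The mean log2 ratio went from 1.09 ± 0.24 to -0.53 ± 0.27 (SD, n = 3), so the order of these 2 loci was reversed in every mutant library. The ratio of RPBF to NAC20 was 3.39, 5.10 and 5.94 in the wild type and 2.07, 1.36 and 1.49 in the mutant. For the activator pair itself, the ratio of RPBF to bZIP58 was 5.42, 4.42 and 3.93 in the wild type and 2.78, 2.05 and 2.36 in the mutant.

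Ratios to NF-YC12 also separated the lines. NAC26 was at 0.651, 0.550 and 0.445 times NF-YC12 in the wild type and at 1.30, 1.48 and 1.30 times in the mutant. NAC20 was at 0.410, 0.195 and 0.188 times NF-YC12 in the wild type and at 0.533, 0.706 and 0.523 times in the mutant. The ratio of RPBF to NF-YC12 overlapped between the lines, at 0.993 to 1.39 and 0.781 to 1.10. With each library left out in turn, the log2 ratio difference of RPBF to NAC26 lay between -1.78 and -1.51.

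**Figure D3:**
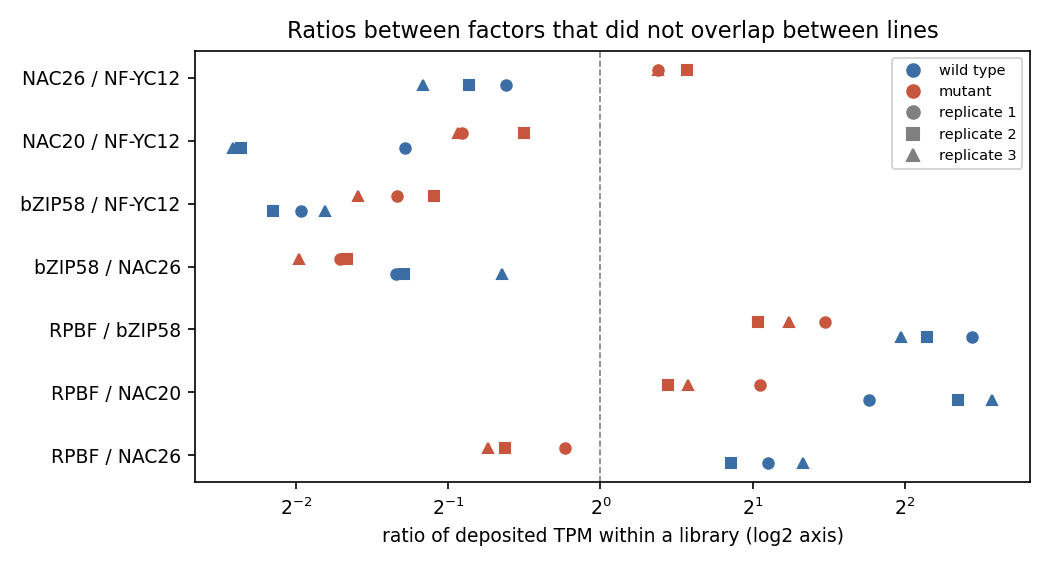
Ratio of deposited TPM within each library (log2 axis) for the 7 pairs of loci whose ratios did not overlap between the lines; symbols mark replicates. RPBF over NAC26 lies above 1 in the wild type (1.81 to 2.52) and below 1 in the mutant (0.599 to 0.851), and NAC26 over NF-YC12 crosses 1 the other way.

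Profiles over the 6 libraries were compared by the mean absolute difference of centred log2 values. Among pairs of tested loci the closest were RPBF with NF-YC12 at 0.201 log2 units and NAC20 with NAC26 at 0.207, and the farthest was RPBF with NAC26 at 0.811. Of 5026 described genes with a mean of at least 10 TPM, the closest to NAC26 were LOC_Os03g11560 (digalactosyldiacylglycerol synthase 2, 0.0675) and LOC_Os08g05640 (ENHANCED DISEASE RESISTANCE 2-like, 0.0816). The closest to NAC20 were LOC_Os05g33550 (a methyl-CpG-binding domain protein, 0.103) and LOC_Os07g47590 (a BAH1-like ubiquitin ligase, 0.105). LOC_Os06g09370 (a bHLH transcription factor, 0.0745) and LOC_Os03g27840 (described as a splicing factor, 0.0842) were closest to RPBF.

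For NF-YC12 the closest were the inositol-pentakisphosphate 2-kinase gene LOC_Os04g56580 at 0.0424 log2 units and the glucose-6-phosphate/phosphate translocator 2 gene LOC_Os08g08840 at 0.0895. For bZIP58 they were the ubiquitin ligase gene LOC_Os05g38830 at 0.0699 and the MATH domain gene LOC_Os05g43280 at 0.0781. For RSR1 they were the DnaJ chaperone gene LOC_Os06g02620 at 0.0548 and the peroxiredoxin-2C gene LOC_Os01g48420 at 0.0660. With 6 libraries many genes come this close, and these values are a description only.

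Relatives and partners of the 7 loci showed no call either. Of 17 such genes, all tested, 0 were called higher and 0 lower; their median log2 difference was 0.13, and -0.34 without rescaling, beside -0.01 and -0.43 over all tested rows. The smallest p belonged to ONAC129, an endosperm NAC gene of chromosome 11, at 11.9, 12.8 and 9.74 TPM in the wild type and 18.8, 18.1 and 21.4 TPM in the mutant. Its lines did not overlap, and its log2 difference was 1.2 ± 0.29 (SE, limma adjusted p = 0.0908). Library weights gave it a limma adjusted p of 0.00402, and leaving out wild type replicate 2 gave 0.0335. These settings called 2137 and 254 of all tested rows higher, against 320 in the main fit. The other 13 alternatives did not pass, and the adjusted p over all of them reached 0.367. The NF-YB1 and NF-YC12 partner bHLH144 differed by 0.52 ± 0.20 log2 units (SE, limma adjusted p = 0.260), or by 0.002 without rescaling. NF-YC11, another NF-YC subunit, differed by 0.64 ± 0.26 (SE, limma adjusted p = 0.271). The bZIP relatives REB, OsbZIP20 and OsbZIP15 had log2 differences of 0.06, -0.02 and 0.01, and OsbZIP52 had the lowest of the 17 genes at -0.33 ± 0.64 (SE).

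Storage protein genes, known targets of RPBF, bZIP58 and the NAC pair, had 0 of 11 members called, beside 3.76% of all tested rows. The list holds glutelin genes and the globulin gene Glb1, and no prolamin gene. All 11 differences lay above 0 with a median of 1.43. Without rescaling the median was 0.90 with 9 above 0 and 2 below, beside -0.43 over all tested rows. With wild type replicate 1 left out the median was 0.66 with 9 above 0. The markers of wild type replicate 1 given above stand beside this difference, and their part in it was not tested. Of those markers GluA2 and Glb1 are also members of this list, so their low values there are not separate from this difference. GluB2, a glutelin gene, was at 95.7, 159 and 137 TPM in the wild type and at 185, 193 and 195 TPM in the mutant. Its log2 difference was 1.096 ± 0.44 (SE, limma adjusted p = 0.270). The value was 0.66 when wild type replicate 1 was left out. For GluB4 the log2 difference was 2.62 ± 1.41 and for GluD1, a further glutelin gene, 1.34 ± 0.72 (SE), with limma adjusted p of 0.389 and 0.390. Leaving out wild type replicate 1 gave 0.97 for GluB4 and 0.74 for GluD1. GluB4 was at 169 TPM in wild type replicate 1 against 2827 to 7397 TPM in the other libraries. Glutelin copies may share reads, so single values are uncertain.

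Starch genes, targets of bZIP58, the NAC pair and RSR1, had 0 of 12 tested members called, with a median log2 difference of 0.13, or -0.39 without rescaling and 0.01 without wild type replicate 1. Wx, which makes amylose and is bound by bZIP58 and by the NF-YB1 and NF-YC12 complex in rice, was at 2790, 3292 and 2140 TPM in the wild type and at 9486, 9145 and 12651 TPM in the mutant. The lines did not overlap, and the log2 difference was 2.46 ± 0.58 (SE, limma adjusted p = 0.0821), and over the alternatives its adjusted p ranged from 0.00355 to 0.444. It passed with no variance trend (0.0112) and with library weights (0.00355) and in none of the other 13 alternatives. These settings called 316 and 2137 of all tested rows higher, against 320 in the main fit. AGPL3, a subunit of ADP-glucose pyrophosphorylase, differed by 0.97 ± 0.30 log2 units (SE, limma adjusted p = 0.174), and SSIIIa, a soluble starch synthase, 1.03 ± 0.48 (SE, limma adjusted p = 0.330), which was 0.56 without wild type replicate 1. Other starch genes lay below 0, such as the synthase genes SSI at -0.38 ± 0.41 and SSIIa at -0.36 ± 0.26 (SE). In scaled TPM 2 of the 12 genes did not overlap with the mutant above, Wx and AGPL3, and 2 with the mutant below, SSIIa and AGPL2. Among all tested rows 10.9% did not overlap with the mutant above and 12.7% with the mutant below. AGPL2, a further ADP-glucose pyrophosphorylase subunit gene, had a log2 difference of -0.31 ± 0.38 (SE). In deposited TPM only Wx lay wholly above in the mutant, and AGPL2, AGPS2, SSI, SSIIa and ISA2 lay wholly below. How often all tested rows did so in deposited TPM was not counted. Their median log2 difference without rescaling was -0.43.

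Further genes known as NF-Y targets in rice had 0 of 4 tested members called, with a median log2 difference of -0.04, or -0.51 without rescaling. The sucrose transporter gene SUT1 was at 54.8, 25.8 and 36.9 TPM in the wild type and at 31.3, 37.9 and 35.3 TPM in the mutant, and differed by 0.41 ± 0.20 log2 units (SE, limma adjusted p = 0.357), or by -0.10 without rescaling. SUT4 had a log2 difference of -0.16 ± 0.40 and FLO6, a starch-binding protein gene, one of -0.13 ± 0.33 (SE), with limma adjusted p of 0.855 and 0.852. Leaving out wild type replicate 1 gave -0.60 and 0.10. SUT3 was listed at 0 in all 6 libraries.

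**Figure D4:**
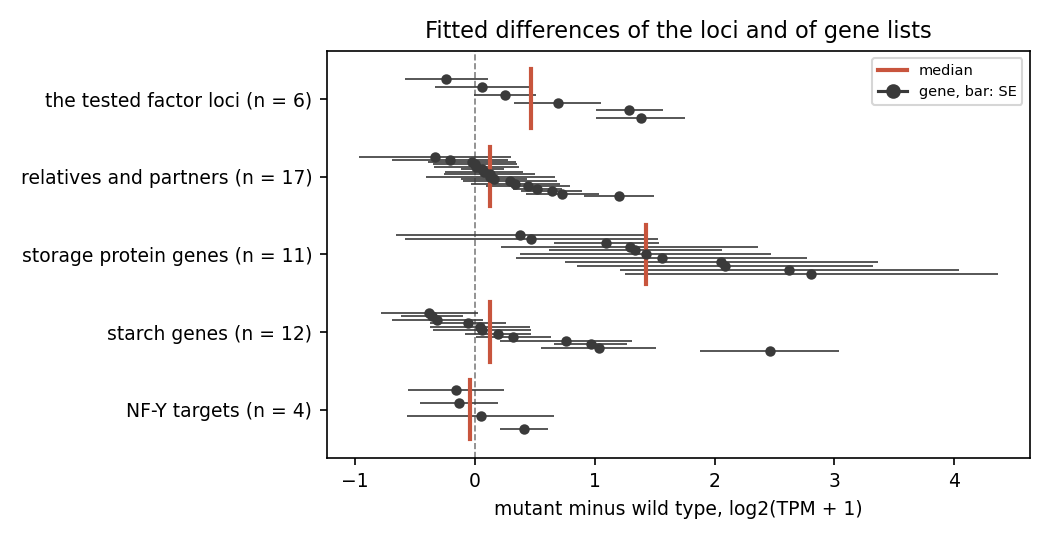
Fitted differences (mutant minus wild type, log2(TPM + 1)) of the 6 tested loci and of the genes of 4 lists; points are genes, bars are the SE of the limma fit and red lines are medians. The medians are 0.47 for the loci, 0.13 for relatives and partners, 1.43 for storage protein genes (glutelin genes and Glb1), 0.13 for starch genes and -0.04 for NF-Y targets. Of these sets 0 genes were called.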

How the data were processed

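The authors deposited a table of TPM, per the values of the file: they have 2 decimals and sum to between 967528 and 991476 per library, although the table is named for counts. The tools named, per the submitters' processing notes, are DESeq2 1.12.4, RSEM, Bowtie2, HISAT2 2.1.0 and StringTie, and their roles are not given. The notes name the build mm10, a mouse build, so the rice build is not given in the sources used here and no coordinates are printed. Mutant columns are named sg3 with a replicate number where the labels write sg34, and were matched by that number; the mutant values rest on this reading. TPM keep no depth, so no counting intervals are given.

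Each library's TPM were divided by an unweighted TMM factor, for which 30% of M values and 5% of A values were trimmed. The test was limma 3.58.1 (R 4.3.3) on log2(TPM + 1), with a mean-variance trend and no replicate block. Differences on this scale understate the change of low genes. Named genes are the 7 loci, the 3 members of each list with the smallest p, and the 2 genes with the profile closest to each tested locus; other names were chosen after their values were seen. The loci, the lists and the tests were chosen with earlier results of these data known. The 10 kDa prolamin locus was dropped from 2 lists because its deposited description names another protein. Of the 13 members of the starch list 12 had a row in the deposited table. The PUL locus had none under the ID used and was not analysed here.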

Additional observations from a re-analysis of the deposited data

How the results depend on the processing

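With 3 libraries per line and unknown depth, low loci such as RSR1 and LOC_Os02g49370 are the least certain. The numbers of the replicates give no pairing: the correlation of deviations between libraries with one number was -0.541, 0.0032 and -0.368, and 0 of 6 libraries correlated best with their own number. A fit with the replicate block called 131 genes higher and 123 lower, against 320 and 316 without it, and 0 of the loci were called. Genes called higher and lower numbered 129 and 140 of 10118 tested rows with at least 5 TPM in 3 libraries. They numbered 2137 and 1779 of 16917 with library weights, and 186 and 301 of 16917 without rescaling. The cause was not tested for any of these settings. With any 1 library left out, 22 to 319 genes were called higher and 57 to 152 lower. Of the loci, 3 were called higher with library weights (NAC20, NAC26 and bZIP58, the last with limma adjusted p = 0.0460), 1 with no variance trend, and 0 to 1 without a library. The fit with no variance trend called 316 of all tested rows higher and 309 lower. Of the loci 0 were called lower in all 15 alternatives. Signs were followed for the loci, LOC_Os02g49410 and the 3 genes of smallest p in each list. Without rescaling they turned for NF-YC12 (-0.46), RSR1 (-0.11), ISA1 (-0.20), SUT1 (-0.10) and RbcS4 (-0.26). With library weights they turned for NF-YC12 (-0.0050) and FLO6 (0.12). Further list genes turned too. Of the 17 relatives and partners, 14 lay above 0 in the main fit and 4 without rescaling. Of the 12 starch genes, 8 and 4 did. Without single libraries the log2 differences ranged from -0.46 to 0.0061 for RPBF, 0.0035 to 0.45 for RSR1, -0.29 to 0.42 for NF-YC12, -0.60 to 0.10 for SUT4, -0.33 to 0.15 for FLO6 and -0.30 to 0.75 for RbcS4. Leaving out libraries for ratios and family shares was chosen after seeing the data, and since these were picked for groups that do not overlap, their sign could not turn.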
